A study of Homo sapiens with 12 samples.

Results

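Transcripts of the receptor tyrosine kinases MET and AXL, their ligands HGF and GAS6, the MET regulator MACC1, the chemokine receptor CXCR4 and the transglutaminase TGM2 were followed in RCC4 cells after siRNA against the hypoxia-inducible factors. The genes were chosen by symbol, with earlier results of these libraries known, and they are 7 of the 23106 gene symbols in each count file. RCC4 is a human clear cell renal cell carcinoma (ccRCC) line, cultured from 1 tumor, with a mutated VHL gene. All 4 groups therefore lacked functional VHL, and RCC4 is known to make both HIF-1 and HIF-2. Control cells received 2 nM of control siRNA. Cells with HIF1A siRNA or HIF2A siRNA (against EPAS1, the gene of HIF-2α) received 1 nM of it with 1 nM of control siRNA, and cells with HIF1A and HIF2A siRNA, called the double knockdown here, received 1 nM of each. RNA was taken 48 h after transfection, with 3 replicates per group and 12 libraries in all, and replicates of the same number were paired across groups. The siRNAs were pools of many sequences, and a group was a bulk culture in which fewer cells with a transcript and less transcript per cell cannot be told apart.

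The VHL protein marks the α subunits of HIF-1 and HIF-2 for degradation when oxygen is present, so that cells without it keep both factors active. MET is the receptor of hepatocyte growth factor, HGF, and drives migration and branching of epithelial cells. MACC1 was named for its association with metastasis of colon cancer and acts as a regulator of MET transcription. AXL is a receptor of the TAM family whose ligand is the vitamin K-dependent protein GAS6. CXCR4 is the receptor of the chemokine CXCL12 and guides cells toward it, and TGM2 crosslinks proteins and binds fibronectin at the cell surface. MET, AXL and CXCR4 have been described as genes that respond to VHL loss or to HIF in renal carcinoma.

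The libraries held 13263168 to 20451433 counts, of which the top 10 genes made up 4.98 to 6.39%. The siRNAs lowered their targets. HIF1A had 96.7 ± 33.6 CPM (read count scaled to library size; mean ± SD, n = 3) with control siRNA and 18.3 ± 3.62 with HIF1A siRNA, a log2 fold change of -2.39 (SE 0.22, edgeR adjusted p = 1.3e-05). EPAS1 had 157 ± 16.9 CPM with control siRNA and 10.1 ± 1.53 with HIF2A siRNA. The log2 fold change was -3.97 (SE 0.18, edgeR adjusted p = 2.4e-08). In the double knockdown the log2 fold changes were -1.73 for HIF1A and -4.15 for EPAS1. HIF1A was less depleted there than with HIF1A siRNA alone, at 161.5, 180.5 and 134.1% of that level in the 3 pairs. This was a log2 fold change of 0.66 (SE 0.21), which was not called (edgeR adjusted p = 0.18). The double knockdown and HIF1A siRNA groups were therefore not matched in HIF1A transcript. With HIF1A siRNA alone EPAS1 was at 62.2, 77.05 and 78.5% of control siRNA in the 3 pairs. This was a log2 fold change of -0.47 (SE 0.16), which was not called (edgeR adjusted p = 0.28). Of 6 markers of epithelium and renal tubule, 5 were expressed, with a summed level of 751 to 1210 CPM over the 12 libraries. The epithelial cadherin CDH1 had at most 0.482 CPM. PTPRC and CD3E of leukocytes and PECAM1 of endothelium were listed at 0 throughout, none of 4 endothelial markers was expressed (at most 0.432 CPM summed), the 5 fibroblast markers summed to 19.3 to 80.9 CPM, and the 4 leukocyte markers, through CD68 and LYZ, summed to 33.1 to 65.5 CPM.

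Promoter sequences are shown for MACC1, which had the largest fold changes of the 7 genes, and for MET and AXL, the receptors with most transcript. Each is the 250 bases before a transcription start in RefSeq on build GRCh38.p14, written 5′ to 3′ on the gene's strand. Capitals mark a match, on either strand, to ACGTG or GCGTG, the core letters that HIF binds in DNA. The MACC1 window is chr7:20217385-20217634 on the minus strand, the MET window is chr7:116671946-116672195 on the plus strand, and the AXL window is chr19:41226505-41226754 on the plus strand, before the second of 2 starts listed for AXL.
MACC1: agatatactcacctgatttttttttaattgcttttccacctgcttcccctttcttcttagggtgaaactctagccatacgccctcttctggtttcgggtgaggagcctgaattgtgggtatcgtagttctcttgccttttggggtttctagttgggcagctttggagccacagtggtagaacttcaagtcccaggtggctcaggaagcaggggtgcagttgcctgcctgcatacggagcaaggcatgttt
MET: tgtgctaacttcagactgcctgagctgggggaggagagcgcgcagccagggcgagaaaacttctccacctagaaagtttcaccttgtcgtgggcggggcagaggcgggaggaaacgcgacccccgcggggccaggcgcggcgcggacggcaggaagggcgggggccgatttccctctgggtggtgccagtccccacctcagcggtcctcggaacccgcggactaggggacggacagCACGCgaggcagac
AXL, second start: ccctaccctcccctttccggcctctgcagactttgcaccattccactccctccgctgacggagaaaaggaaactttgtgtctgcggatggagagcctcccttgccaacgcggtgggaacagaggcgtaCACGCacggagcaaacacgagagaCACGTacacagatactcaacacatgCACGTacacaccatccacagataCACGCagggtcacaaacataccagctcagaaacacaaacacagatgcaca

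The MACC1 window held no match, which says only that these letters are not in these 250 bases. The MET window held 1 match to GCGTG, on the opposite strand, 14 to 10 bases before the start. The window of the second AXL start held 4 matches, 2 to each motif, between 122 and 46 bases before the start, and that of the first AXL start held none. GAS6 and HGF held 1 match each, and the 3 starts of CXCR4 held 1, none and 2. Of 35116 RefSeq promoter windows of the same length, 43.2% held at least 1 match (18.5% ACGTG and 32.2% GCGTG). Windows were found for 6 of the 7 genes, all but TGM2.

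Of the 7 genes, 5 had enough counts for the fit across all genes (MET, MACC1, AXL, GAS6 and TGM2), against 13000 of all 23106 symbols. In these 5 genes, 2 patterns of expression stood apart. MACC1 and TGM2 differed between the groups with and without HIF2A siRNA, in every replicate pair. MET, AXL and GAS6 had levels in every group that overlapped those of every other group, and MET and AXL varied mainly with the replicate number. HGF and CXCR4 had at most 3 counts in any library. Because the genes were chosen with earlier results of these libraries known, their values are given as a description, with standard errors and without p-values.

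**Figure D1:**
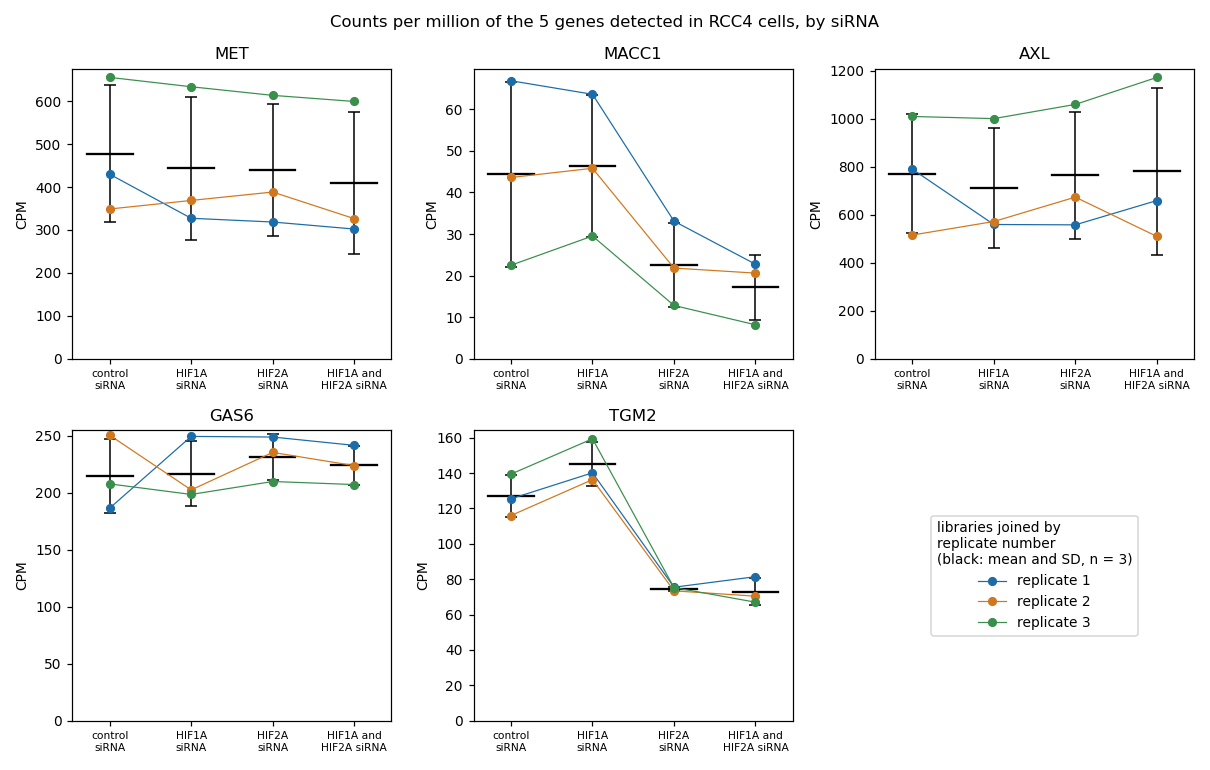
Scaled counts (CPM, linear axis from 0) of the 5 genes with enough counts, in the 12 libraries by siRNA group. Colored points are libraries, joined by replicate number, and black bars are the mean and SD of 3 replicates. MACC1 and TGM2 step down in both groups that received HIF2A siRNA, whereas MET and AXL separate replicate 3 (599 to 655 CPM and 1001 to 1173 CPM) from replicates 1 and 2 in each group.

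Levels can be compared between genes only per length. With the exon length of each gene in GENCODE, the control cells had 150.4 ± 48.2 CPM per kilobase of AXL (mean ± SD, n = 3), 66.2 ± 22.0 of MET, 35.7 ± 5.42 of GAS6, 16.0 ± 1.48 of TGM2 and 4.48 ± 2.24 of MACC1. In this order AXL and MET did not overlap (100.5 to 196.8 against 48.3 to 90.7 CPM per kilobase), and neither did any other neighbours. Transcript of the regulator MACC1 was thus the scarcest of the 5 per length, in all 4 groups.

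HGF, the only known ligand of MET, was listed at 0 in all 12 libraries, 0 of 212532380 counts. With 3 counts as the limit that a count of 0 allows, this is up to 0.0141 CPM over all libraries and 0.146 to 0.226 CPM in a single library, and the upper bound of the 95% Clopper-Pearson interval over all libraries is 0.0174 CPM. CXCR4 had 3 counts in replicate 1 with HIF2A siRNA, 1 count in replicate 1 of the double knockdown and 0 in the other 10 libraries. Over all libraries this is 0.0188 CPM (95% Clopper-Pearson interval 0.00513 to 0.0482). These limits cover counting error only. A listed 0 need not mean that a transcript is absent, since the widely expressed cytokine MIF was also listed at 0 in all 12 libraries. Neither gene could be compared between the groups.

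MET, the receptor of HGF, had 429.8, 348.9 and 655.4 CPM in replicates 1 to 3 with control siRNA. It had 327.3, 368.8 and 633.6 CPM with HIF1A siRNA. With HIF2A siRNA the values were 318.6, 388.4 and 613.6 CPM, and in the double knockdown they were 302.2, 326.5 and 599.3 CPM. In each group replicate 3 was the highest, and the 4 groups overlapped. The log2 fold change against control siRNA was -0.13 (SE 0.11, 95% interval -0.37 to 0.11) with HIF1A siRNA and -0.13 (SE 0.11, -0.37 to 0.11) with HIF2A siRNA. In the double knockdown it was -0.25 (SE 0.11, -0.49 to -0.01), with 70.3, 93.6 and 91.5% of the control level in the 3 pairs. The interval is not adjusted for the number of genes, and MET was not called in any comparison. MET was lower in the double knockdown than in its pair in 3 of 3 pairs, as were 25.4% of all genes tested.

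MACC1, which regulates transcription of MET, had 66.9, 43.6 and 22.5 CPM in replicates 1 to 3 with control siRNA. With HIF1A siRNA it had 63.6, 45.8 and 29.5 CPM. It had 33.1, 21.8 and 12.8 CPM with HIF2A siRNA and 22.7, 20.6 and 8.18 CPM in the double knockdown. Replicate 3 was the lowest in each group, so that the HIF2A siRNA libraries overlapped the control libraries although each was lower than its own pair. The level with HIF2A siRNA was 49.5, 50.05 and 57.0% of control siRNA in the 3 pairs, and the log2 fold change was -0.945 (SE 0.14). Of all genes tested, 12.1% were lower in all 3 pairs in that comparison.

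In the double knockdown MACC1 was at 34.0, 47.3 and 36.4% of the control siRNA level in the 3 pairs, a log2 fold change of -1.36 (SE 0.14). Against HIF1A siRNA, the double knockdown was lower by a log2 fold change of -1.49 (SE 0.14), and these groups did not overlap (8.18 to 22.7 against 29.5 to 63.6 CPM), as was so for 4.46% of all genes tested in this direction. Against HIF2A siRNA the log2 fold change was -0.41 (SE 0.15), with 68.7, 94.4 and 63.8% in the 3 pairs. It was lower in 3 of 3 pairs, as were 19.9% of genes tested. HIF1A siRNA alone left MACC1 at 95.1, 105.1 and 131.2% of control siRNA, a log2 fold change of 0.13 (SE 0.14). The difference between the effect of HIF2A siRNA with and without HIF1A siRNA (the interaction) was -0.54 (SE 0.20) on the log2 scale and was not called.

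AXL had 790.5, 515.9 and 1010.2 CPM with control siRNA and 559.9, 572.3 and 1001 CPM with HIF1A siRNA. It had 558.4, 674 and 1060.5 CPM with HIF2A siRNA and 659.6, 510.3 and 1173 CPM in the double knockdown. Replicate 3 was again the highest in each group, and no group stood apart. The log2 fold changes against control siRNA were -0.13 (SE 0.14, 95% interval -0.43 to 0.17) with HIF1A siRNA, -0.02 (SE 0.14, -0.32 to 0.29) with HIF2A siRNA and -0.03 (SE 0.14, -0.33 to 0.27) in the double knockdown. In each of these comparisons the 3 pairs did not go the same way, with 70.6 to 130.6% of the control level for HIF2A siRNA.

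GAS6, the ligand of AXL, had 186.5, 250.5 and 207.8 CPM with control siRNA and 249.5, 202.5 and 198.5 CPM with HIF1A siRNA. With HIF2A siRNA it had 248.9, 235.4 and 209.9 CPM, and in the double knockdown 241.6, 223.8 and 207.2 CPM. All libraries lay within this range of 186 to 251 CPM, and the groups overlapped. The log2 fold changes against control siRNA were 0.0085 (SE 0.12, 95% interval -0.25 to 0.27) with HIF1A siRNA, 0.10 (SE 0.12, -0.16 to 0.36) with HIF2A siRNA and 0.06 (SE 0.12, -0.20 to 0.32) in the double knockdown. Transcript of both the receptor AXL and its ligand was therefore measured in every group, whereas MET was measured without counts of its ligand.

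TGM2, the tissue transglutaminase, had 125.4, 116.0 and 139.4 CPM with control siRNA and 140.1, 136.3 and 159.4 CPM with HIF1A siRNA. It had 75.5, 73.4 and 75.2 CPM with HIF2A siRNA and 81.4, 70.4 and 67.0 CPM in the double knockdown. All 6 libraries with HIF2A siRNA lay below all 6 without it, and the share of all genes that did so was not counted. Against control siRNA, TGM2 was at 60.2, 63.3 and 54.0% with HIF2A siRNA (log2 fold change -0.76, SE 0.11) and at 64.9, 60.7 and 48.05% in the double knockdown (log2 fold change -0.80, SE 0.11). All 3 libraries lay below all 3 control libraries for 2.86% of genes tested with HIF2A siRNA and for 8.55% in the double knockdown.

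HIF1A siRNA alone left TGM2 at 111.7, 117.5 and 114.3% of control siRNA in the 3 pairs, a log2 fold change of 0.20 (SE 0.11). It was higher in 3 of 3 pairs, as were 14.8% of all genes tested, and it was not called. The double knockdown differed from HIF2A siRNA by a log2 fold change of -0.03 (SE 0.11). The HIF1A siRNA group was above the HIF2A siRNA group by a log2 fold change of 0.96 (SE 0.11) for TGM2 and of 1.07 (SE 0.14) for MACC1. The TGM2 groups did not overlap (136.3 to 159.4 against 73.4 to 75.5 CPM), as was so for 3.52% of genes tested in this direction. The comparisons against control siRNA share the control libraries, so their values stand side by side here. The HIF1A siRNA and HIF2A siRNA groups were compared with each other directly, as given above for TGM2 and MACC1.

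**Figure D2:**
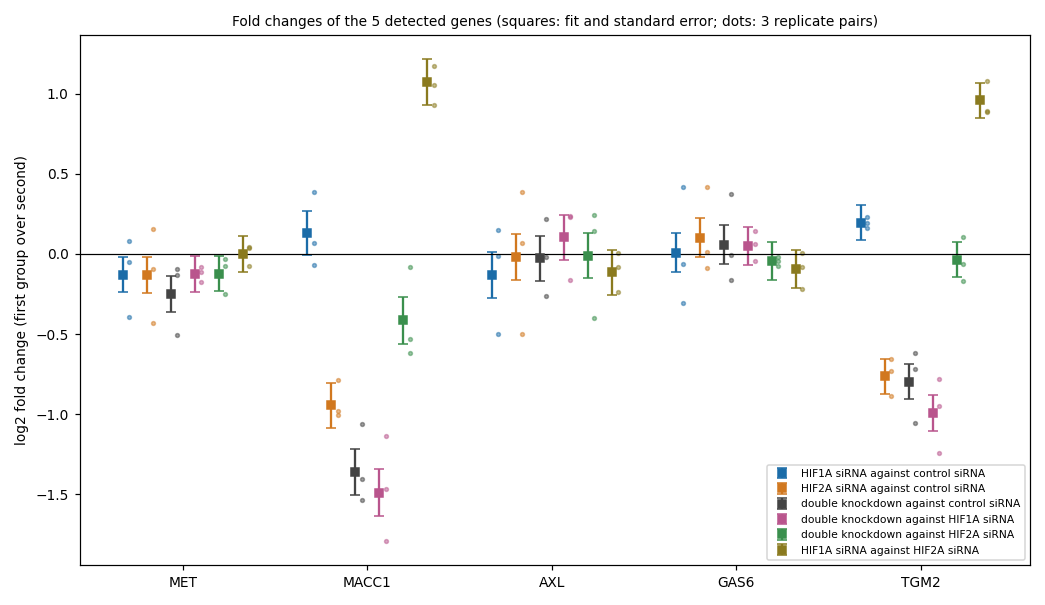
Log2 fold changes of the 5 genes in the 6 comparisons between groups. Squares are the fitted value with its standard error, small dots are the 3 replicate pairs, and values below 0 mean that the first group named was lower. MACC1 (-0.945) and TGM2 (-0.76) lie below 0 for HIF2A siRNA against control siRNA, and the dots of MET, AXL and GAS6 lie on both sides of 0 in that comparison.

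The fit called 2 of the 5 genes (MACC1 and TGM2, both lower) with HIF2A siRNA against control siRNA, where it called 0.200% of the 13000 genes tested (0.192% lower). It called the same 2 genes, lower, in the double knockdown against control siRNA, where 10.3% of all genes were called (6.42% lower), and against HIF1A siRNA, where 1.40% were called (0.969% lower). Both were called higher with HIF1A siRNA than with HIF2A siRNA (1.92% of all genes, 0.454% higher). Nothing is read from these counts, because the choice of the genes used these contrasts. With HIF1A siRNA against control siRNA edgeR called 0 of 5 (1.39% of all genes, none of the 5 at an unadjusted p under 0.05, DESeq2 0). For the double knockdown against HIF2A siRNA it called 0 of 5 (4.0% of all genes, 1 at an unadjusted p under 0.05, DESeq2 0), and for the interaction 0 of 5 (0 of all genes, 1 at an unadjusted p under 0.05, DESeq2 0). For the interaction, 318 of all genes had an unadjusted p under 0.05 and DESeq2 called 11. The calls of MACC1 and TGM2 with HIF2A siRNA were lost without replicate 1, without replicate 3, without control siRNA replicate 3, without HIF2A siRNA replicate 3 and without the pairing, while the log2 fold changes stayed between -1.005 and -0.86 for MACC1 and between -0.82 and -0.70 for TGM2.

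Shares of the variance of log2 CPM across the 12 libraries sum up the same values in another form and add no separate evidence. For MET, replicate number took 90.5% of the variance and siRNA 4.28%, and for AXL they took 85.8 and 1.25%. For TGM2 the order was the opposite, with 1.25% for replicate number and 95.6% for siRNA. MACC1 had 44.5% for replicate number and 53.6% for siRNA, and its remainder was 1.96%. GAS6 had 63.9% in the remainder, which neither accounts for. The medians over all genes tested were 46.4% for replicate number, 19.2% for siRNA and 24.2% for the remainder. Replicate 3 was the highest of the 3 for MET (599 to 655 CPM against 302 to 430 CPM in the other replicates) and for AXL (1001 to 1173 against 510 to 791 CPM), and the lowest in each group for MACC1. What the replicate numbers share was not tested.

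**Figure D3:**
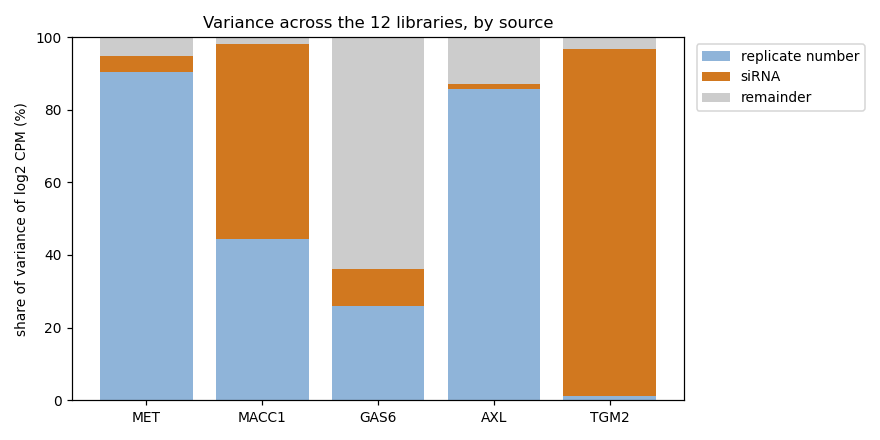
Share of the variance of log2 CPM across the 12 libraries, in percent, that went to replicate number, siRNA and the remainder, as stacked bars for 5 genes. Replicate number fills most of the bar for MET (90.5%) and AXL (85.8%), and siRNA fills most of it for TGM2 (95.6%).

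Other genes of these pathways were examined in 6 lists with 82 genes, of which 60 were tested and 5 were listed at 0 in all libraries. The lists, too, were chosen with earlier results of these data known. The shares called and the p-values of list genes, here and below, are therefore a description. In the double knockdown 9 of the 60 were called against control siRNA (15%, beside 10.3% of all genes), 8 lower and 1 higher, beside 6.42% lower and 3.86% higher of all genes. HIF1A siRNA gave 1 call (1.67%, beside 1.39%), and HIF2A siRNA gave 0 by edgeR, beside 0.200% of all genes. With HIF2A siRNA 9 of the 60 (15%) had an unadjusted p under 0.05, beside 6.68% of all genes, and DESeq2 called 2 (SOS1 and PTPRJ). The median log2 fold change of the 60 genes was -0.03, -0.015 and -0.17 for HIF1A siRNA, HIF2A siRNA and the double knockdown, and the median of all genes was 0.0032, 5e-04 and 0.0048. Without the replicate block the calls were 0, 0 and 1. Without replicate 3 there were 2 calls in the double knockdown, without control siRNA replicate 3 there were 4, without replicate 1 or replicate 3 of the double knockdown there were 5 each, and without HIF2A siRNA replicate 2 there were 14.

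Among the ligands, receptors, activating proteases and inhibitors of the HGF and MET family, 2 of 8 genes were tested, SPINT2 and MST1, and neither was called in the double knockdown (0 at an unadjusted p under 0.05, DESeq2 0). SPINT2, an inhibitor of the proteases that activate HGF, had group means of 280 to 321 CPM. Means of the HGF activators HGFAC, HPN and ST14 and of the MET relative MST1R were at most 0.319 CPM in any group. MET and SPINT2 were thus measured in cells where these 3 activators and HGF were at or near 0.

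Of 22 tested genes of MET signalling (adaptors, partners and phosphatases), 4 were called lower in the double knockdown than in control cells and none was called higher, beside 6.42% and 3.86% of all genes. LRIG1, a transmembrane protein that restrains receptor tyrosine kinases including MET, had 28.9, 27.7 and 19.96 CPM with control siRNA and 13.8, 16.0 and 9.44 CPM with HIF1A siRNA. It had 25.3, 24.05 and 15.7 CPM with HIF2A siRNA and 10.6, 11.1 and 9.06 CPM in the double knockdown. LRIG1 fell with HIF1A siRNA by a log2 fold change of -0.98 (SE 0.15, edgeR adjusted p = 0.0016) and in the double knockdown by -1.30 (SE 0.15, edgeR adjusted p = 4.5e-05). It was also lower in the double knockdown than with HIF2A siRNA (-1.06, SE 0.15, edgeR adjusted p = 0.00055), a call lost only without the replicate block (0.11). Among the 60 genes, LRIG1 was the only one called with HIF1A siRNA against control siRNA, and that call was lost without replicate 1 (edgeR adjusted p = 0.07), without replicate 3 (0.095) and without the replicate block (0.27).

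SOS1, an exchange factor that activates RAS, had 38.2, 31.5 and 53.7 CPM with control siRNA and 17.9, 18.3 and 34.96 CPM in the double knockdown. It had 25.1, 32.1 and 53.3 CPM with HIF1A siRNA and 21.2, 22.8 and 37.8 CPM with HIF2A siRNA. It fell in the double knockdown by a log2 fold change of -0.83 (SE 0.14, edgeR adjusted p = 0.0012), a call lost only without the replicate block (0.45). With HIF2A siRNA alone SOS1 was already at -0.61 (SE 0.14, edgeR adjusted p = 0.12). The double knockdown differed from HIF2A siRNA by -0.22 (SE 0.14, edgeR adjusted p = 0.42). PTPRJ, a receptor phosphatase, fell in the double knockdown by -0.43 (SE 0.10, edgeR adjusted p = 0.017), from 129 to 180.1 CPM with control siRNA to 107 to 113 CPM. With HIF1A siRNA PTPRJ had 149.1, 135.3 and 166.1 CPM, and with HIF2A siRNA alone it had 104.3, 104.0 and 123.1 CPM. The PTPRJ call in the double knockdown was lost without replicate 1 or 3, without control siRNA replicate 3 and without replicate 1 or 3 of the double knockdown (edgeR adjusted p from 0.06 to 0.4). The adaptor SHC1 was at -0.30 in the double knockdown (SE 0.09, edgeR adjusted p = 0.044), and the call was lost under most alternatives, with no change of the log2 value beyond -0.33 to -0.28. The main docking adaptor of MET, GAB1, had a log2 fold change of -0.93 (SE 0.29) and was not called (edgeR adjusted p = 0.054), and it was called by DESeq2.

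The TAM receptor list, with 6 of 7 genes tested, had no call in the double knockdown (0 at an unadjusted p under 0.05, DESeq2 0). Group means of the AXL relatives TYRO3 and MERTK were 25.1 to 30.5 and 1.46 to 2.37 CPM. The second TAM ligand, PROS1, had means of 35.1 to 41.8 CPM. ADAM10 and ADAM17, proteases that shed AXL and MET, had log2 fold changes of -0.38 (SE 0.19) and -0.27 (SE 0.18) in the double knockdown, and neither was called (edgeR adjusted p = 0.24 and 0.37).

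In the CXCR4 list, 10 of 16 genes were tested and none was called in the double knockdown (0 at an unadjusted p under 0.05, DESeq2 0). The CXCR4 ligand CXCL12 had group means of 0.226 to 0.566 CPM, and the scavenging receptor CXCR7 of the same ligand had 5.03 to 8.96 CPM. CXCL12 reached 1.27 CPM in 1 library with HIF2A siRNA, the highest of the 12.

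Among transglutaminases and TGM2 binding partners, 6 of 12 genes were tested and 1 was called in the double knockdown by edgeR, GPR56. DESeq2 called 1 other gene, TGM5, with group means of 6.63 CPM with control siRNA and 4.16 CPM in the double knockdown. GPR56, an adhesion receptor that binds TGM2, had 108.7, 91.3 and 133.4 CPM with control siRNA and 162.6, 154.6 and 360.7 CPM in the double knockdown. It rose by a log2 fold change of 0.92 (SE 0.25, edgeR adjusted p = 0.028), opposite in sign to TGM2, and DESeq2 did not call it (adjusted p = 0.056). Its call was lost without replicate 3, without control siRNA replicate 2 or 3 and without replicate 1 or 3 of the double knockdown (edgeR adjusted p from 0.087 to 0.28). With HIF2A siRNA GPR56 had 129.5, 299.6 and 267.97 CPM, a log2 fold change of 1.02 (SE 0.25) that was not called (edgeR adjusted p = 0.19). Fibronectin, FN1, a matrix partner of TGM2, had group means of 2384 to 2569 CPM and was not called in the double knockdown (0.34, SE 0.14, edgeR adjusted p = 0.14). These means hide a wide spread between replicates, 866 to 5164 CPM with control siRNA and 1300 to 4815 CPM in the double knockdown.

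Of 14 tested matrix proteases and inhibitors, 4 were called lower in the double knockdown than in control cells and none was called higher, beside 6.42% and 3.86% of all genes. The gelatinase MMP9 had 25.7, 28.4 and 26.6 CPM with control siRNA and 13.2, 15.5 and 4.82 CPM in the double knockdown, a log2 fold change of -1.41 (SE 0.25, edgeR adjusted p = 0.0023). The urokinase receptor PLAUR had 98.2, 106.4 and 91.1 CPM with control siRNA and 62.5, 66.0 and 50.0 CPM in the double knockdown. It fell by -0.74 (SE 0.15, edgeR adjusted p = 0.0052). The membrane-bound MMP15 fell by -0.63 (SE 0.13, edgeR adjusted p = 0.0072), and urokinase itself, PLAU, fell by -0.43 (SE 0.11, edgeR adjusted p = 0.027). Without replicate 3 none of these 4 genes was called in the double knockdown (edgeR adjusted p from 0.063 to 0.39), and MMP9 was then at a log2 fold change of -0.92. MMP15 was also lost without replicate 3 of control siRNA or of the double knockdown (edgeR adjusted p = 0.058 and 0.06), and PLAU without replicate 1, without control siRNA replicate 2 or 3 and without replicate 1 or 3 of the double knockdown (0.056 to 0.17).

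**Figure D4:**
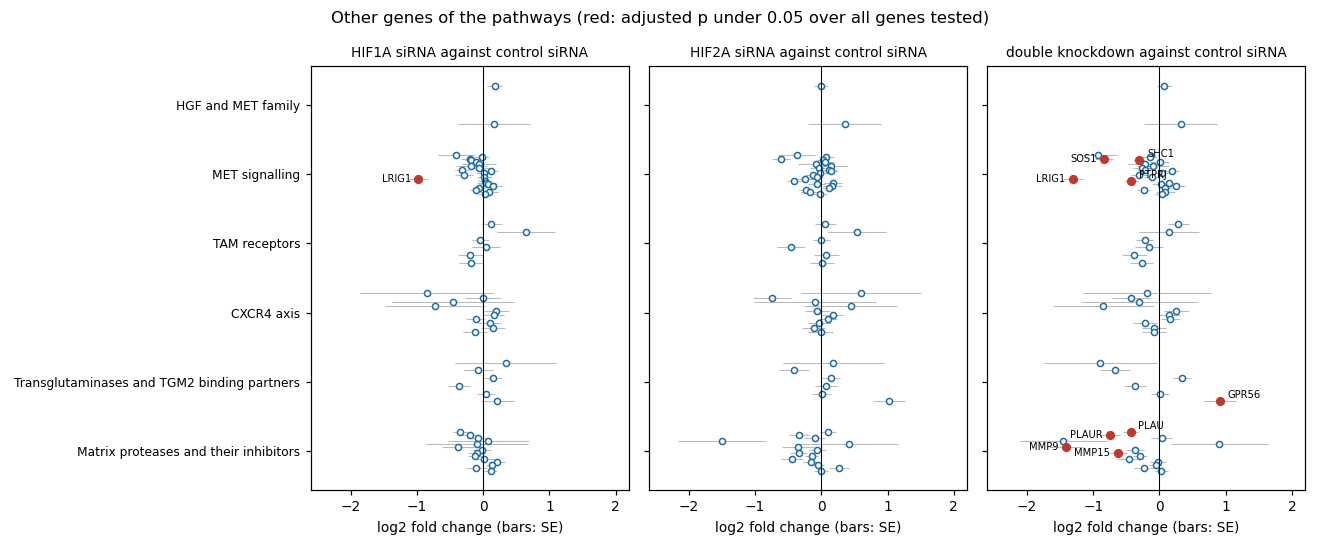
Log2 fold changes with standard errors of 60 other genes of the pathways, by list (rows), for HIF1A siRNA, HIF2A siRNA and the double knockdown against control siRNA (panels). Red points are genes called at an adjusted p under 0.05 over all genes tested, and open points are the rest. LRIG1 is called with HIF1A siRNA, none with HIF2A siRNA, and 9 genes with the double knockdown, of which GPR56 alone lies above 0.

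The genes whose levels followed each of MET, MACC1 and AXL most closely were sought among all genes tested. Likeness was Pearson's r of log2 CPM over the 12 libraries after the mean of each replicate number was taken out, and it is given as a description, since the points share libraries and depth. MET was most like PIK3CB (r = 0.971), a catalytic subunit of phosphoinositide 3-kinase, ARFGEF1 (0.960) and DNAJC10 (0.958). None of these was called in the double knockdown (edgeR adjusted p = 0.22, 0.07 and 0.23). AXL was most like CD2AP (0.978), DROSHA (0.976) and MFN1 (0.974).

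MACC1 was most like RAP2C (0.978), TNFAIP6 (0.975) and AHR (0.969). TNFAIP6, a hyaluronan-binding secreted protein, had 84.1, 106.5 and 48.7 CPM with control siRNA and 53.9, 67.6 and 34.9 CPM with HIF2A siRNA. AHR, the aryl hydrocarbon receptor, had 62.3, 51.8 and 78.2 CPM with control siRNA and 40.4, 29.96 and 48.3 CPM with HIF2A siRNA. RAP2C, a small GTPase, had 67.4, 57.8 and 83.4 CPM with control siRNA and 55.96, 49.05 and 70.9 CPM with HIF2A siRNA. For RAP2C, TNFAIP6 and AHR the log2 fold changes with HIF2A siRNA were -0.25 (SE 0.10), -0.59 (SE 0.11) and -0.70 (SE 0.11), and in the double knockdown -0.29 (SE 0.10), -0.84 (SE 0.11) and -0.76 (SE 0.11). RAP2C was called in neither comparison. All 3 were picked for their likeness to MACC1, so these values are a description. Among the 5 genes themselves, r was 0.951 between MACC1 and TGM2, 0.666 between MET and AXL and -0.725 between MET and GAS6, while MET and MACC1 had an r of 0.526. These r values include the differences between siRNA groups. The 5 genes were chosen with earlier results known, so these r values are a description too.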

How the data were processed

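Polyadenylated RNA of 12 RCC4 cultures was sequenced from stranded libraries. The authors trimmed reads with Trim Galore 0.3.3, aligned them to hg19 (GRCh37) with HISAT2 2.05, kept uniquely mapped fragments with Picard 2.0.1 and counted fragments per gene with HTSeq 0.5.4p3, and they deposited raw counts per gene symbol for each library. Whether counting used strand is not given in the sources used here, so reads of MET, MACC1 and GAS6 and of RNAs that overlap them in RefSeq (COMETT, MACC1-AS1, MACC1-OT1 and GAS6-AS1, which have no row in the files) cannot be told apart.

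From the counts, edgeR 4.0.16 (R 4.3.3) was run with TMM scaling, its expression filter (minimum count 10, minimum total 15), the replicate number as a block and the quasi-likelihood test on all 12 libraries. Benjamini-Hochberg adjustment was over the 13000 genes tested, and a gene was called at an adjusted p under 0.05. CPM used TMM-scaled library totals. Log2 ratios of single pairs and correlations used CPM with 0.5 added, and percentages within pairs used CPM as they are. The study's methods call the replicates biological. No library was counted as a duplicate, since replicates differed by more than sampling noise.

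Pairing by replicate number comes from the study's methods. Deviations from the group means correlated between same-numbered libraries of different groups (r from 0.0991 to 0.813 over 18 pairs, 17 over 0.1). Those with different numbers had r from -0.724 to 0.527 over 36 pairs, 9 over 0.1. Not every library was most like its own number. Control siRNA replicate 2 had r of 0.527 with HIF2A siRNA replicate 1 and 0.231 with HIF2A siRNA replicate 2. Control siRNA replicate 1 had r of 0.130 with HIF2A siRNA replicate 2 and 0.0991 with HIF2A siRNA replicate 1.

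The 7 genes and the 6 lists were chosen with earlier results of these data known, and MACC1 and TGM2 are in the study's own list of HIF-2 targets, chosen on these libraries. Named genes were the 7, HIF1A and EPAS1, cell type markers, list genes called with a single siRNA against control siRNA, the 3 called genes of each list with the largest change in the double knockdown that went the same way in 3 pairs, and the 3 genes most like each of MET, MACC1 and AXL. Others named were chosen after their values were seen. Alternatives were size-factor scaling, other filters, no block, DESeq2 1.42.0, 9 libraries without the double knockdown, and leaving out each replicate number and library.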

Additional observations from a re-analysis of the deposited data

How the results depend on the processing

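No value changed direction among called results under the alternatives tried. Without the replicate block the calls over all genes were 47 for HIF1A siRNA, 2 for HIF2A siRNA and 195 for the double knockdown, each against control siRNA (181, 26 and 1336 with it). With the double knockdown set against HIF1A siRNA they were 8 and set against HIF2A siRNA 90, and with HIF1A siRNA set against HIF2A siRNA 55 (182, 520 and 249 with it). Of the 60 list genes, no block left 0, 0, 1, 0, 0 and 0 in these 6 comparisons, in place of 1, 0, 9, 2, 3 and 3. Of MET, MACC1, AXL, GAS6 and TGM2 it left 0 called with HIF2A siRNA and 1 each in the double knockdown against control siRNA, the double knockdown against HIF1A siRNA and HIF1A siRNA against HIF2A siRNA, in place of 2. DESeq2 called 298 genes with HIF1A siRNA, 82 with HIF2A siRNA, 403 and 818 for the double knockdown set against HIF1A siRNA and HIF2A siRNA, 434 for HIF1A siRNA against HIF2A siRNA and 11 for the interaction. Among list genes DESeq2 called 2 with HIF2A siRNA and 5 and 6 for the double knockdown set against HIF1A siRNA and HIF2A siRNA. With no filter there were 55 calls over all genes with HIF2A siRNA and 4 for the interaction, and list genes had 1 call with HIF2A siRNA, 5 for the double knockdown set against HIF1A siRNA and 5 for HIF1A siRNA against HIF2A siRNA. In a fit of 9 libraries, 11 genes were called with HIF2A siRNA, and 1 list gene for HIF1A siRNA against HIF2A siRNA. The cause of these differences was not tested.

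Leaving out 1 replicate number or library at a time gave ranges of calls over all genes of 73 to 317 (HIF1A siRNA against control siRNA), 1 to 49 (HIF2A siRNA), 302 to 2307 (double knockdown), 26 to 442 (double knockdown against HIF1A siRNA), 158 to 672 (double knockdown against HIF2A siRNA), 107 to 311 (HIF1A siRNA against HIF2A siRNA) and 0 to 3 (interaction). In the same order the list genes ranged over 0 to 1, 0 to 1, 2 to 14, 0 to 7, 1 to 5, 0 to 4 and 0 to 0. Calls among MET, MACC1, AXL, GAS6 and TGM2 ranged over 0 to 2 with HIF2A siRNA, 1 to 2 in the double knockdown and 1 to 2 in the double knockdown against HIF1A siRNA. In the double knockdown, set against control siRNA or HIF1A siRNA, the call of MACC1 was lost only without the block and that of TGM2 only without replicate 3. MET, AXL and GAS6 were not called under any alternative. Size-factor scaling moved the median log2 fold change of all genes by under 0.01, with no call among the 5 genes changed. HGF and CXCR4 were limited by their counts, at most 3 in a library.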
